A study of Homo sapiens with 4 samples.

Results

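The step from mesoderm-stage cells to endothelial progenitors was followed by comparing 1 RNA sequencing library of APLNR+ cells (MES) with 1 library of CD31+CD34+ cells (HEP). Both came from H1, an established human embryonic stem cell line, and are 2 of the 4 libraries of the series. The others were undifferentiated H1 cells (hESC) and day 7 cells sorted for CD31 and CD43 (HPC), whose values are given here only as levels beside the pair. MES cells were sorted on day 2, after 2 days of culture with both 40 ng/ml activin A and 50 ng/ml BMP4. HEP cells were sorted on day 4, after 2 further days with 40 ng/ml VEGF plus 50 ng/ml bFGF, so HEP cells had received all 4 factors in turn. HPC cells came from 3 further days in VEGF and bFGF to which SB-431542, a blocker of the activin and NODAL receptor kinases, was added. All 17630 genes whose symbol occurs only 1 time in the tables were joined between the libraries, and 11189 of these were detected, with a value of 1 or more in MES or HEP. Each group was a single library of a single cell line, so values carry no error between replicates, nothing could be tested across samples, and the differences below are described by their size. Day, added factors and sort gate differ together between the libraries and cannot be told apart.

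Endothelial cells of the embryo arise from mesoderm that has passed through the primitive streak under NODAL, BMP and WNT signals. VEGF, acting through the receptor KDR, drives such mesoderm towards vessel-forming cells, in which factors of the ETS family switch on junction and receptor genes. TAL1 and LMO2 belong to a protein complex needed for both early vessel and blood formation, and some early endothelial cells, called haemogenic, later give rise to blood cells that carry CD43.

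The values are the authors' normalised expression signal per gene, whose depth is unknown. The largest feature of the pair was a trend with the base composition of the transcripts. Among the 6175 genes with a mean of 5 or more and a value above 0 in both libraries, the log2 difference of (value + 1), HEP minus MES, had a Spearman rho of 0.69 with GC content across genes, which are not independent replicates. The 618 genes with the lowest GC content (32.0% to 41.4%) had a median difference of -1.87 (quartiles -2.36 and -1.36), and 540 of them stood at least 2-fold lower in HEP. The 617 genes with the highest GC content (62.6% to 74.1%) had a median of 0.49 (quartiles 0.12 and 0.89), with 139 higher and 26 lower. The trend was therefore removed before genes were counted. After removal the medians of these gene sets were -0.03 and 0.02, rho with GC content was 0.02 and rho with transcript length was 0.02. A difference with this trend taken out is called adjusted below, and all levels are given as deposited. Whether the trend belongs to the libraries or to the cells was not tested.

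**Figure D1:**
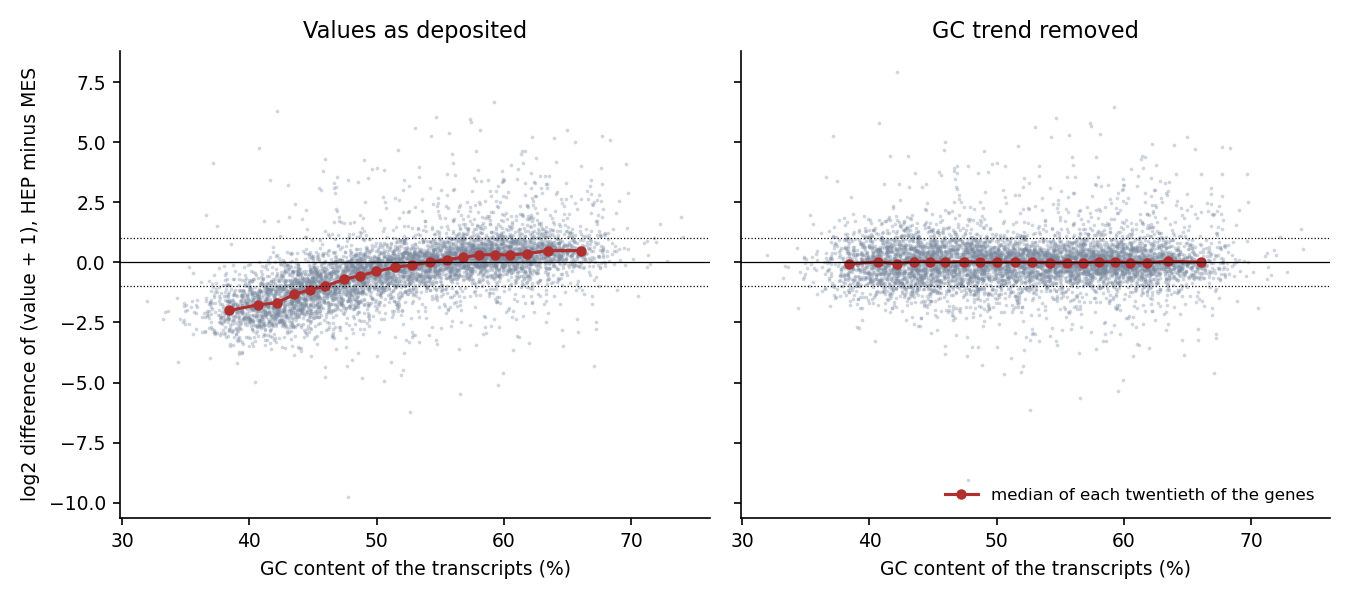
Each point is 1 gene with a mean of 5 or more in MES and HEP. The x axis is the GC content of its transcripts in percent and the y axis its log2 difference of (value + 1), HEP minus MES. Red points are medians of successive twentieths of the genes and dotted lines mark 2-fold. As deposited the medians climb from about -2 at low to 0.5 at high GC content (left), and with the trend removed they lie near 0 throughout (right).

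A gene was counted as higher or lower in HEP when its adjusted difference was at least 1 in size, that is 2-fold on the scale of (value + 1), and its value was 5 or more in the higher library. Of 11145 detected genes with a known GC content, 654 were higher in HEP (5.87%) and 775 were lower (6.95%). Counts of higher or lower members in the gene lists below are to be read beside these shares. As deposited the same rule gave 583 higher (5.23%) and 2440 lower (21.9%). Of the 654 genes, 431 (65.9%) were also higher as deposited, and of the 775 genes, 704 (90.8%) were also lower. Conversely, 1736 of the 2440 genes lower as deposited were not lower with the trend removed, and the median GC content of the 2440 was 43.3% against 50.2% for all detected genes. The split depended on the scaling in other ways too. With the GC trend removed but the overall shift between the libraries kept (-0.17 on the log2 scale), 537 were higher and 1002 lower. With the libraries set to a common total and no GC trend removed, 848 were higher and 2035 lower. The median difference of all detected genes was -0.46 as deposited and -0.04 adjusted. Adding 1 before the log2 makes the differences of low genes smaller than they are.

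**Figure D2:**
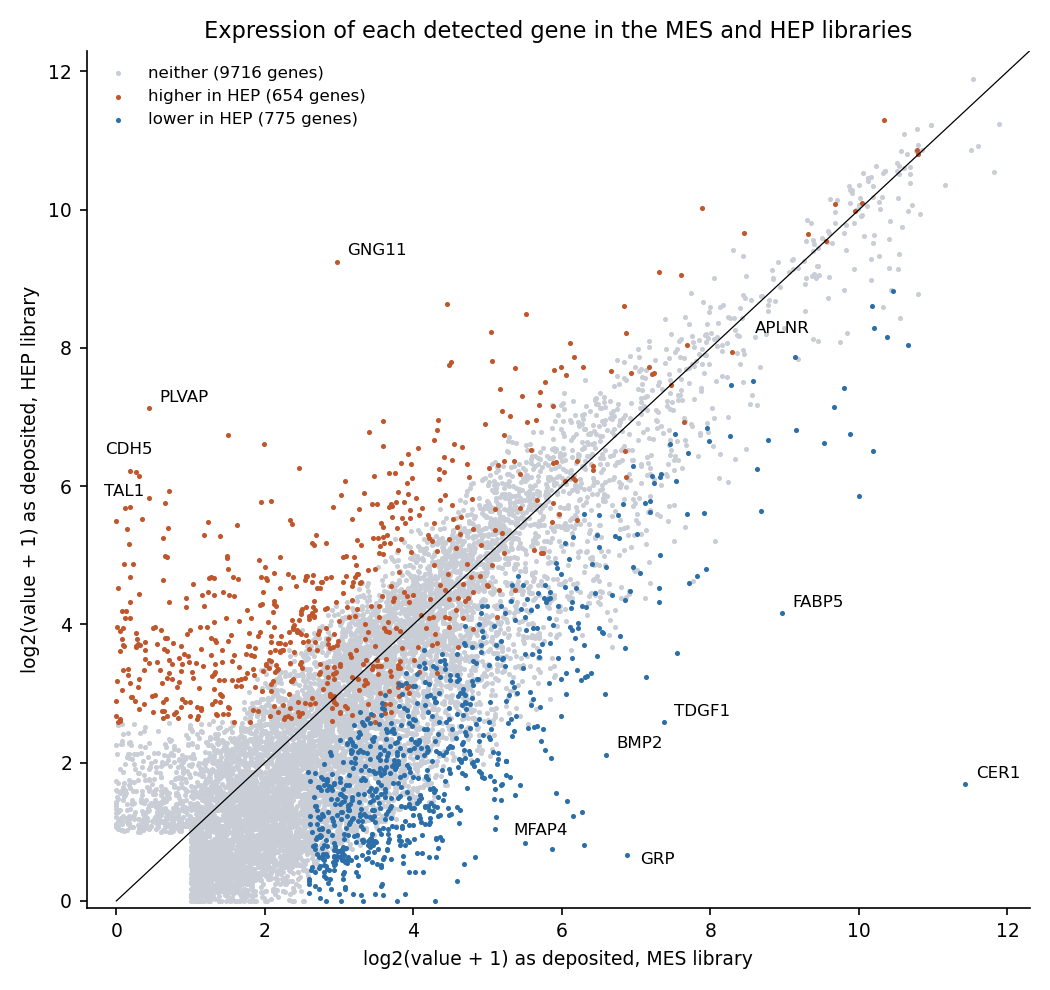
Each point is 1 of the 11145 detected genes, at log2(value + 1) as deposited in MES (x axis) and HEP (y axis), and the line marks equal values. Orange genes are higher in HEP and blue genes lower by the adjusted difference, so near the diagonal colour follows GC content as well as distance from the line. PLVAP, CDH5 and TAL1 lie at the left edge and CER1 at the far right.

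The sort antigens and the markers of both populations were read first. The label of MES rests on APLNR, the receptor of apelin, which stood at 344.4 in MES and 249.8 in HEP (adjusted difference -0.74, but 0.12 with median-of-ratios scaling and no GC removal), and so was also high in cells sorted for other antigens. CD34 went from 1.35 to 43.6 (adjusted 4.64). PECAM1, which encodes CD31, went from 0.01 to 1.83 and did not reach the minimum of 5, although HEP cells were sorted for this protein. The endothelial and blood-forming markers CDH5, PLVAP, TAL1 and LMO2 were all under 1 in MES and between 50.4 and 139.5 in HEP. CER1, which is secreted and blocks NODAL and BMP, stood at 2761 in MES and 2.22 in HEP. In bulk samples such as these, a smaller share of cells that express a gene and less RNA per cell cannot be told apart.

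The 15 genes highest above MES in HEP were led by GNG11, a G protein gamma subunit, which stood at 6.81 in MES and 608.1 in HEP (adjusted 7.92, or 6.29 as deposited). PLVAP, which forms the diaphragms of endothelial pores, stood at 0.36 and 139.5 (adjusted 6.49), and CDH5, the VE-cadherin of endothelial junctions, from 0.14 to 73.5 (adjusted 6.0). TM4SF1, a membrane protein abundant in endothelium, went from 0.07 to 28.3 and, having a low GC content of 40.8%, moved from 4.78 as deposited to 5.81 adjusted. ICAM2, an adhesion molecule (0.20 to 73.2), MMRN2, a matrix protein of endothelium (0.23 to 69.6), TAL1 (0.08 to 50.4), the complement lectin FCN3 (0.14 to 51.0) and LMO2 (0.35 to 56.0) followed, with adjusted differences from 5.79 down to 5.29. Next came the signalling adaptor SAMSN1 (0.05 to 17.3), EXOC3L1 (listed at 0 in MES and at 44.0 in HEP), the WNT antagonist sclerostin, SOST (0.10 to 40.6), HOPX (0.60 to 30.6), the angiopoietin pathway receptor TIE1 (0.63 to 60.0) and FAM212A (0.27 to 45.0). These 15 genes all stood below 7 in MES. Of all 654 higher genes, 224 differed at least 4-fold and 37 at least 16-fold, and 112 were under 1 in MES.

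Sequences before the start of some of these genes are shown because ETS factors, known to bind a GGAA core, are the factors most tied to endothelial genes. RefSeq promoters (build GRCh38.p14) matched 10127 of the 17630 genes with a single entry, and 6 short motifs were searched on both strands in the 250 bases before the start. Each line below gives the 100 bases before the start on the gene's strand, with matches to the ETS letters CAGGAAG (or its reverse complement) and to AACAGGAA, a composite of forkhead and ETS letters that overlaps it, in capitals. Genes with several entries, such as TAL1, were left out, and CDH5 and LMO2 had none. The first 6 genes were higher in HEP and were picked for having a match. The last 2, lower in HEP, have no match to these longer letters in this window. Both do hold the GGAA core on the other strand, read as ttcc. The lines are examples only, and the shares over groups of genes follow.
PLVAP, chr19:17377343-17377442, minus strand: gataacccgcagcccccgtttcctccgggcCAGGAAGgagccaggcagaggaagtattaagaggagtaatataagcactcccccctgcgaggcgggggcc
ECSCR, chr5:139462744-139462843, minus strand: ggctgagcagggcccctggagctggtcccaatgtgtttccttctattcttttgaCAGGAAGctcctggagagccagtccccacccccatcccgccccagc
RASIP1, chr19:48740611-48740710, minus strand: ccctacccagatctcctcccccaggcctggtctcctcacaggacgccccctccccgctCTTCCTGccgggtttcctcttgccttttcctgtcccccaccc
PLXND1, chr3:129606677-129606776, minus strand: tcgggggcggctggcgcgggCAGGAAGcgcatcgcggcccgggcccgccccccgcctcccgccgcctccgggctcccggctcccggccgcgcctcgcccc
TFPI, chr2:187554436-187554535, minus strand: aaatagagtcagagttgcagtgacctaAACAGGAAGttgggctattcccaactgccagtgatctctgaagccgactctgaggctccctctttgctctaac
APLN, chrX:129654957-129655056, minus strand: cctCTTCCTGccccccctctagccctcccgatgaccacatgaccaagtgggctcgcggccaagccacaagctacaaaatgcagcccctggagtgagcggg
CER1, chr9:14722734-14722833, minus strand: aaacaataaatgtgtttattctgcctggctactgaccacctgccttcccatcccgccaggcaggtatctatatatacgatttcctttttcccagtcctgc
MIXL1, chr1:226223564-226223663, plus strand: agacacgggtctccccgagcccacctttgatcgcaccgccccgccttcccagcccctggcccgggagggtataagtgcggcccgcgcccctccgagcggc

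The ETS letters CAGGAAG stood in 9.38% of the promoters of detected genes (614 of 6546) and in 10.1% of those of all genes in the table. They stood in 12.2% of the promoters of genes higher in HEP (42 of 345) and in 8.24% of those lower (35 of 425). The composite AACAGGAA stood in 1.16% of the promoters of detected genes, 2.32% of those of higher genes and 0.94% of those of lower genes. The E-box CAGCTG, which proteins such as TAL1 can bind with partners, stood in 12.1%, 12.8% and 12.7% in the same order, and CCAAT in 37.2%, 37.7% and 37.2%. The GATA letters AGATAAG (1.01%, 1.45% and 0.94%) and the T-box letters AGGTGTGA (0.49%, 0.58% and 0.47%) were rare in every group. Genes that differed at least 4-fold were a class looked at after the data were seen. In this class CAGGAAG stood in 21.1% of the promoters of higher genes (23 of 109) and 7.79% of those of lower genes (6 of 77), CAGCTG in 12.8% and 16.9%, and CCAAT in 32.1% and 27.3%. AACAGGAA stood in 4 and 0 of these promoters, AGATAAG in 2 and 0 and AGGTGTGA in 1 and 0. With the first entry of genes that have several, an alternative added after the data were seen, CAGGAAG stood in 19.3% (32 of 166) and 8.11% (9 of 111) of this class and in 9.73% of the promoters of detected genes. The median GC content of the promoters was 65.6% for detected genes and 64.8% for both 4-fold groups. These shares are descriptions, made without a test, and a match shows letters and not a bound site.

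VEGF is sensed by the receptors KDR, FLT1 and FLT4 with the co-receptors NRP1 and NRP2, and all of these but NRP2 were higher in HEP. KDR, the main signalling receptor, went from 62.4 to 210.4 (adjusted 2.64), FLT1, which binds VEGF with little signalling, from 10.4 to 52.5 (adjusted 3.12), and FLT4, the receptor for VEGFC, from 0.92 to 18.1 (adjusted 3.00). NRP1 stood at 14.7 and 32.3 (adjusted 2.07), and NRP2 at 38.7 and 76.5 with an adjusted difference of 0.88. TEK, the angiopoietin receptor, went from 2.09 to 42.6 (adjusted 4.69) beside its partner TIE1. None of the ligands was higher: VEGFA stood at 4.13 and 1.93, the placental growth factor PGF at 12.9 and 9.04, VEGFB at 2.30 and 2.50 and ANGPT2 at 2.87 and 0.51, while VEGFC, FIGF and ANGPT1 were under 1 in both libraries. In all, 6 of the 12 detected genes of this list were higher and 0 lower, with a median adjusted difference of 1.47 beside -0.04 for all detected genes. Members detected through HEP alone can only be higher, so such counts follow in part from the rule.

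Endothelial junction and surface genes were higher in 14 of 27 detected cases and lower in 0 (median 1.78), and 7 further genes of the list were not detected. Beside CDH5, PLVAP and ICAM2 they included ECSCR, a regulator of endothelial migration (0.62 to 41.0), the junction protein ESAM (0.17 to 28.2), and SELE, the E-selectin that captures leukocytes (0.01 to 8.09). JAM3 (14.2 to 58.3), the protein C receptor PROCR (12.9 to 59.4) and MCAM (20.4 to 72.5) were already above 10 in MES. Other well-known endothelial genes were low in HEP. The tight junction gene CLDN5 stood at 0.46 and 1.57, ROBO4 at 0.02 and 1.23, endomucin, EMCN, at 0 and 0.02, VCAM1 at 0.13 and 0.03, and PCDH12 was listed at 0 in both.

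APLN, the ligand of APLNR, was looked at after its values were seen and went from 0.02 in MES to 21.98 in HEP (adjusted 4.41), with 0.32 in hESC and 0.22 in HPC, while its receptor was high in both MES and HEP. Of the 4 libraries, HEP was the one with both ligand and receptor above 20.

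Adaptors and small GTPase regulators of endothelium showed the same direction, with 15 of 29 detected members higher and 0 lower (median 1.62). Beside GNG11 and EXOC3L1, RASIP1, which vessels need to form a lumen, went from 0.57 to 53.3 (adjusted 4.74), the scavenger receptor STAB1 from 0.14 to 24.7 (adjusted 4.30) and NOS3, the endothelial nitric oxide synthase, from 0.57 to 30.7 (adjusted 4.04). RASGRP3, a RAS activator with a GC content of 41.1%, moved from 1.73 as deposited to 3.25 adjusted (2.13 to 9.40). RHOB, a small GTPase, was already at 70.4 in MES and reached 232.8. PDCD10, a protein of the cerebral cavernous malformation complex, stood at 20.02 and 2.85, which is lower as deposited (-2.45) and not with the trend removed (-0.64).

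Genes of the basement membrane on which endothelium sits were higher in 12 of 30 detected cases and lower in 0 (median 0.79). Type IV collagen stood at 43.0 and 157.7 for COL4A1 and at 40.5 and 209.3 for COL4A2, nidogen 2, NID2, at 0.50 and 9.09, and the angiogenic protein EGFL7 at 21.4 and 215.6. Fibronectin, FN1, went from 157.6 to 545.2 (adjusted 2.15). Laminin alpha 1, LAMA1, went the other way without passing the adjusted rule (32.3 to 15.1). Of 14 detected integrins 5 were higher and 1, ITGB5 (122.7 to 27.4), was lower, while 4 of the 5, ITGAV, ITGB1, ITGA6 and ITGA9, passed only with the trend removed. The fibronectin receptor subunit ITGB1 stood at 115.2 and 68.9 and ITGAV at 31.2 and 22.4, both below MES as deposited. With GC contents of 40.0% and 38.2% they had adjusted differences of 1.36 and 1.67. ITGA3 (2.88 to 18.6) was higher on both scales.

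Coagulation and fibrinolysis genes went in both directions, with 10 of 25 detected members higher and 5 lower (median 1.43). Higher were the coagulation inhibitors TFPI (1.20 to 5.93) and TFPI2 (4.85 to 18.1), the thrombin receptor F2R (4.89 to 24.9), the plasminogen activator PLAT (0.97 to 9.94) and von Willebrand factor, VWF (0.84 to 9.74). Lower were protease inhibitors and proteases high in MES, such as SERPINE2 (408.9 to 48.9), SERPINB9 (114.5 to 11.7) and ADAMTS1 (23.1 to 5.52).

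**Figure D3:**
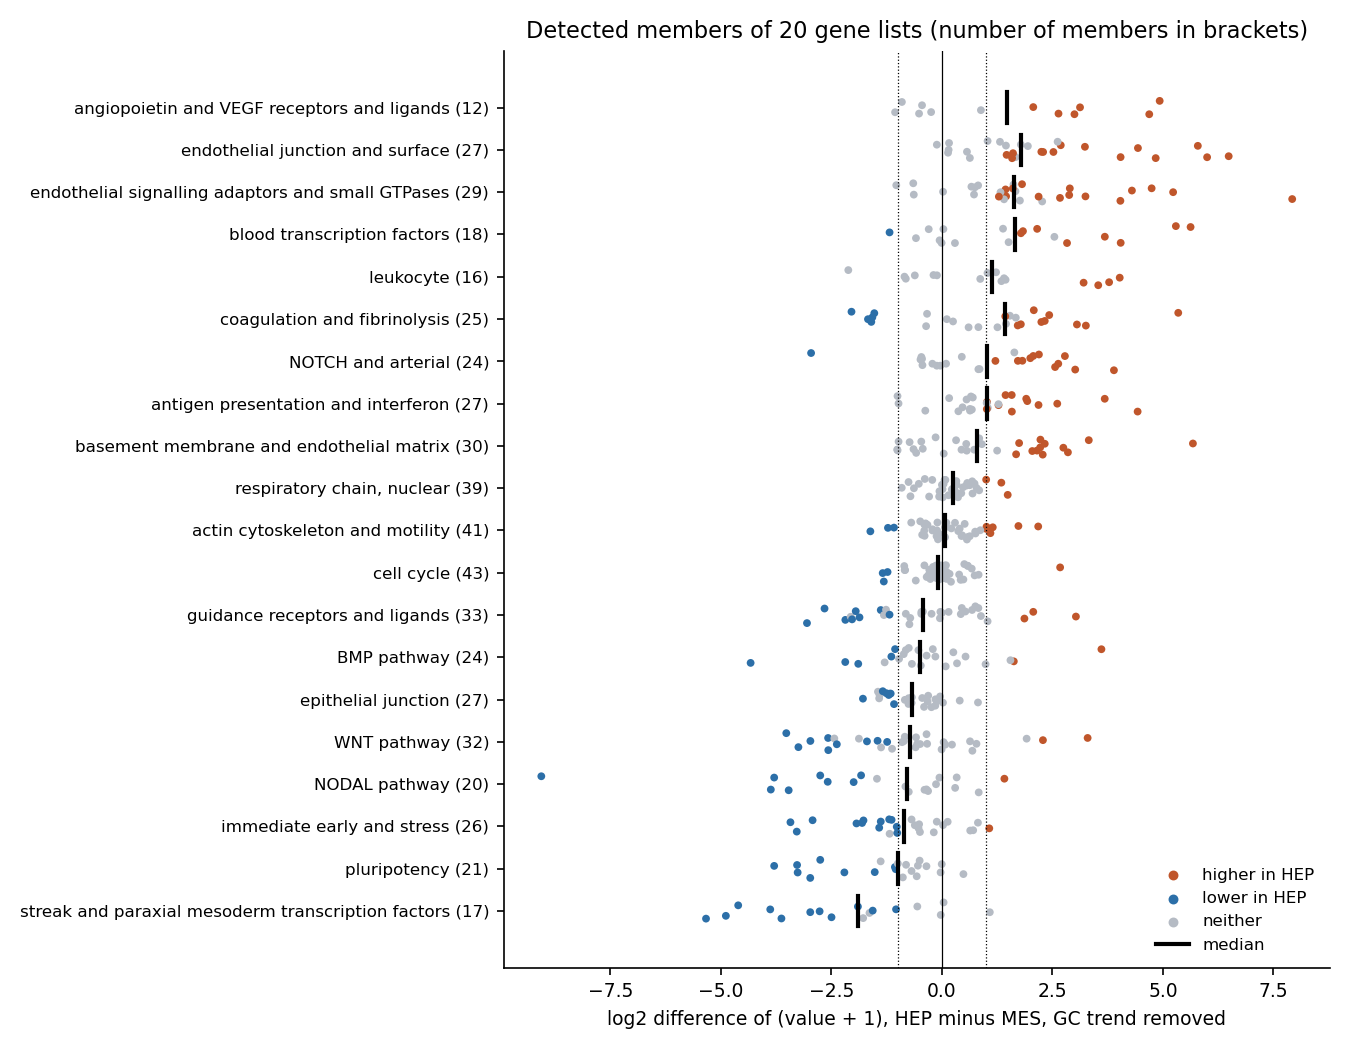
Each row is a gene list and each point a detected member at its adjusted log2 difference of (value + 1), HEP minus MES. Orange points are higher, blue points lower and grey points neither, black bars are medians and dotted lines mark 2-fold. Endothelial lists lie to the right, with medians of 1.47 to 1.78 in the first 3 rows, and primitive streak transcription factors lie to the left, with a median of -1.90.

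Of the ETS family of transcription factors, 3 of 17 detected members were higher and 0 lower (median 0.58). FLI1 (0.31 to 10.3, adjusted 3.75) and ERG (listed at 0 in MES, 6.46 in HEP), both ETS factors of endothelium and blood, were higher. ETS1 stood at 17.1 and 14.5 and counted as higher only with the trend removed (1.09 adjusted, -0.22 as deposited). ETV2, the ETS factor that starts the endothelial programme, stood at 0.49 in MES and 1.66 in HEP, below the minimum in both. Of 17 detected SOX, FOX, KLF and related endothelial factors 6 were higher and 1 lower (median 1.24). SOX7 (0.22 to 12.2), KLF2, which responds to flow (0.46 to 12.1), HHEX (0.58 to 12.9) and BCL6B (3.60 to 30.4) were among the higher. SOX17, which marks both endoderm and arterial endothelium, stood at 25.1 and 26.9. FOXF1 (6.85 to 1.77) was the lower member. MEF2C, NR2F2 and FOXP1 were under 1 in both libraries.

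Of 18 detected transcription factors of blood formation, 8 were higher and 1 lower (median 1.65). TAL1 and LMO2 came with their relative LYL1 (1.27 to 38.1), the repressors GFI1 (0.14 to 19.1) and GFI1B (0.05 to 7.28), GATA2 (3.36 to 25.9), and the red cell and platelet factors KLF1 (1.25 to 9.54) and NFE2 (0.71 to 5.50). The E proteins that pair with TAL1 did not share this direction: TCF4 was lower (10.8 to 2.55), while TCF3 stood at 16.5 and 13.8 and TCF12 at 12.2 and 5.45 with an adjusted difference of -0.01. RUNX1, which the move from endothelium to blood requires, stood at 0.45 and 2.83. GATA1 stood at 0 and 0.61, SPI1 at 0.06 and 0.19 and IKZF1 at 0.58 and 0.46. Genes of mature blood cells stood at mixed levels. Of 10 detected erythroid genes 2 were higher and 1 lower, and 13 of the 23 listed were not detected. RHAG, a red cell membrane protein, went from 0.46 to 9.96 (adjusted 3.49), KLF1 was the other, and the transferrin receptor TFRC was lower (50.0 to 4.77). The membrane protein GYPC stood at 31.5 and 66.0 and the fetal globin HBG2 at 1.40 and 4.05, neither past the adjusted rule, while the globin genes HBA2, HBB and HBZ were listed at 0 in both libraries. Of 6 detected megakaryocyte genes 3 were higher, GFI1B, NFE2 and VWF, and THBS1 was lower (8.50 to 3.47). These 3 higher genes are also counted in other lists here, and 11 of the 17 listed genes were not detected. ITGA2B, which encodes CD41, stood at 1.30 and 3.90. PTPRC, which encodes CD45, was listed at 0 in both, and SPN, which encodes CD43, stood at 0.08 and 0.97. Of 16 detected leukocyte genes 4 were higher, namely LAPTM5 (0.06 to 14.5), ARHGDIB (0.21 to 12.9), VAV1 (0.06 to 12.1) and CD79B (1.80 to 30.2). By the rule 0 were lower, but LCK went from 4.76 to 0.49 (adjusted -2.12), just under the minimum of 5 in MES. LCP1 (7.55 to 2.88) was lower as deposited only. The other 15 of the 31 listed genes were not detected.

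NOTCH signalling between neighbouring cells directs arterial identity. Of 24 detected NOTCH and arterial genes 11 were higher and 1 lower (median 1.03). The higher genes held the fringe enzyme MFNG (0.09 to 17.3, adjusted 3.89), the ligands DLL4 (0.22 to 7.54) and JAG2 (0.98 to 14.2), the receptor NOTCH1 (8.32 to 28.0), the target HES4 (0.61 to 8.37) and the arterial gap junction genes GJA5 (2.87 to 24.8) and GJA4 (1.48 to 20.5). The ligand DLL3, which is known from the paraxial mesoderm, was the lower member (24.7 to 3.56, adjusted -2.96). CXCR4 (6.24 to 12.9) and HEY2 (2.57 to 5.79) passed only with the trend removed, with adjusted differences of 2.00 and 1.72. The arterial and venous partners EFNB2 (6.16 to 2.53) and EPHB4 (37.2 to 89.9) passed as deposited in opposite directions, and neither did with the trend removed (-0.47 and 0.82).

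Of the 15 genes highest above HEP in MES, CER1 led with an adjusted difference of -9.06. Next came the gastrin-releasing peptide GRP (116.7 to 0.58, adjusted -6.13), the microfibril protein MFAP4 (77.9 to 0.75), the transcription factors MIXL1 (57.2 to 0.68), MESP1 (65.9 to 1.73), GSC (23.1 to 0.22) and MESP2 (18.7 to 0.56), the scaffold gene CNKSR3 (69.9 to 1.35), the ion pump subunit ATP12A (44.4 to 0.78) and BMP2 (95.7 to 3.34). The fatty acid binding protein FABP5 (496.9 to 16.9), the carbonic anhydrase CA12 (24.7 to 0.45), the kinase gene ALPK2 (18.6, and listed at 0 in HEP), LEFTY1 (19.9 to 0.85) and TDGF1, a co-receptor of NODAL (164.8 to 5.03), completed the 15 largest. Of the 775 lower genes, 151 differed at least 4-fold and 10 at least 16-fold.

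Of 17 detected transcription factors of the streak and paraxial mesoderm, 11 were lower and 0 higher (median -1.90). EOMES went from 56.5 to 3.20, LHX1 from 8.95 to 1.06 and SNAI1, which drives the epithelial to mesenchymal transition, from 8.06 to 1.84. T, the brachyury gene of the streak, stood at 3.71 and 0.54, under the minimum in both. SP5, a WNT target, stood at 10.7 and 15.97 and EVX1 at 4.66 and 4.21. Lateral plate and cardiac mesoderm genes were lower in 8 of 18 detected cases, among them PDGFRA (15.5 to 1.68), BMP4 (101.5 to 20.5), GATA6 (35.1 to 12.5) and HAND1 (47.1 to 17.4). They were higher in 2, the cardiac factors NKX2-5 (3.37 to 19.3) and GATA5 (0.99 to 5.40).

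NODAL pathway genes were lower in 8 of 20 detected cases and higher in 1 (median -0.79). Among the lower genes were the ligand NODAL (7.36 to 0.33), its co-receptor TDGF1, its antagonists CER1, LEFTY1 and LEFTY2 (11.9 to 1.55), the activin antagonist FST (59.7 to 1.95), and the target PMEPA1 (8.67 to 1.69). FURIN, a protease that matures such ligands, was higher (15.4 to 56.0). The receptor and SMAD genes ACVR2A (5.82 to 0.93), ACVR2B (22.5 to 9.50), SMAD2 (10.1 to 3.23) and the repressor SKIL (16.9 to 3.53) were lower as deposited, and none of these 4 was with the trend removed.

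BMP pathway genes were lower in 5 of 24 detected cases and higher in 2 (median -0.51). The ligands BMP2 and BMP4, the antagonist NOG (10.7 to 2.78) and the targets MSX2 (21.4 to 8.59) and BAMBI (147.4 to 70.2) were lower. Not all targets went this way: ID1 (356.1 to 523.4), ID3 (200.5 to 349.5) and ID2 (75.5 to 64.9) passed on neither scale. Summed values of the 24 genes were 1160 in MES and 1188 in HEP. ACVRL1, the BMP receptor of endothelium, was higher (1.63 to 38.0, adjusted 3.61), as was the inhibitory SMAD6 (9.94 to 37.0). As deposited 10 of the 24 were lower: BMPR1A (31.1 to 5.12, GC content 40.3%), BMPR2, TWSG1, ID4 and SMAD5 passed on that scale alone.

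WNT pathway genes were lower in 9 of 32 detected cases and higher in 2 (median -0.72). WNT5A (33.3 to 1.06), the receptors FZD8 (24.1 to 2.61) and FZD7 (79.9 to 8.51), the antagonist DKK1 (40.2 to 1.89) and the target LGR5 (14.3 to 0.81) were among the lower. WNT11 (0.63 to 19.0) and the antagonist SFRP1 (3.24 to 12.4) were higher, a share of 6.25%, near the 5.87% of all detected genes. Among FGF and ERK genes 7 of 21 detected were lower, including the ligands FGF8 (11.5 to 0.68) and FGF17 (7.71 to 1.61) and the receptors FGFR2 (17.1 to 2.71) and FGFR4 (15.3 to 5.13). The feedback inhibitor SPRY1 (3.36 to 18.6) and FGFBP3 (8.09 to 23.5) were higher, a share of 9.52%. Retinoic acid genes were lower in 3 of 12 cases, with the hydroxylase CYP26A1 at 139.8 and 8.46 and the binding protein CRABP1 at 16.3 and 0.61.

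Receptors and ligands of vessel and axon guidance were lower in 8 of 33 detected cases and higher in 3 (median -0.43). PLXND1, the plexin of endothelium, went from 11.1 to 122.3 (adjusted 3.03), and its relative PLXNA2 went from 45.7 to 4.68 (adjusted -3.05). SEMA3G (0.56 to 5.75) and NRP1 were higher, while SEMA6D (14.4 to 0.34), SEMA3C (7.57 to 0.46), NTN4 (7.51 to 0.49) and the ephrin receptors EPHA4 (24.95 to 4.46), EPHB2 (6.86 to 1.36) and EPHB3 (12.8 to 3.34) were lower.

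Of 21 detected pluripotency genes 9 were lower and 0 higher (median -0.998). POU5F1 stood at 567.6 in MES and still at 112.0 in HEP, where reads of its pseudogenes may be included, and NANOG at 10.7 and 3.12. DPPA4 (35.6 to 11.7), ZFP42 (59.8 to 13.1) and TERF1 (8.25 to 1.87) were lower as deposited only, with adjusted differences of -0.03, -0.57 and 0.00. Among the 27 detected genes of epithelial junctions, 7 stood lower and 0 higher (median -0.69), with CDH1, the E-cadherin, at 12.5 and 2.76. EPCAM (13.1 to 5.44) and the gap junction gene GJA1 (266.8 to 35.8) were lower as deposited only. Conversely, KRT19 (308.5 to 176.2), CLDN6, PKP3 and CLDN4 were lower only with the trend removed. The keratins KRT8 (665.8 to 673.1) and KRT18 (457.2 to 514.7), the highest members of the list, passed on neither scale.

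Markers of other cell types were read for both libraries over the whole of each list. Of 17 cardiomyocyte genes 5 stood at 5 or more in each library, with summed values of 211.6 in MES and 157.2 in HEP. The atrial light chain MYL7 (69.4 to 14.1) and NPPB (32.9 to 1.78) were lower, and NKX2-5 (3.37 to 19.3) was higher on both scales. ACTC1, cardiac actin (49.9 to 54.6), was higher only with the trend removed (1.26 adjusted, 0.13 as deposited), and MYL4 (19.6 to 40.7) only as deposited. SMYD1 was listed at 0 in both. Smooth muscle and fibroblast genes at 5 or more numbered 16 of 24 in MES and 18 in HEP, with sums of 1714 and 1560. Of these COL3A1 (1.05 to 23.1), S100A4 (32.0 to 298.2), THY1 (14.1 to 65.4) and COL1A1 (12.1 to 51.3) were higher, and TAGLN (560.9 to 233.3), POSTN (27.5 to 0.55), CALD1 (40.8 to 5.42) and TPM1 (128.5 to 38.5) lower. Neural and trophoblast genes at 5 or more numbered 2 of 14 and 1 of 13 in MES, and 1 and 0 in HEP. Of the neural list, OTX2 (24.98 to 2.53) was lower and NES stood at 81.1 and 61.5. Definitive endoderm genes summed to 2906 in MES, nearly all of it CER1, and to 102.0 in HEP. The part of such cells in the differences above was not tested.

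For lists of general cell functions the counts depended on whether the GC trend was removed, as they did for all detected genes, of which 21.9% were lower as deposited and 6.95% adjusted. Of 39 nuclear genes of the respiratory chain, 12 were lower and 0 higher as deposited, against 0 lower and 3 higher with the trend removed. Of 77 mitochondrial ribosomal protein genes 24 were lower as deposited and 2 adjusted, of 37 proteasome subunits 14 and 3, of 371 zinc finger genes with ZNF symbols 64 and 22, and of 83 cytosolic ribosomal protein genes 29 and 9. As deposited the lower share of zinc finger genes (17.3%) was below that of all genes. Those of mitochondrial ribosomal (31.2%) and cytosolic ribosomal protein genes (34.9%) and proteasome subunits (37.8%) were above it. With the trend removed, zinc finger genes (5.93%) and proteasome subunits (8.11%) lay near the share of all genes. Mitochondrial and cytosolic ribosomal protein genes then stood at 2.6% and 10.8%. Of 64 histone cluster genes 2 were lower on each scale. Higher were 1 as deposited and 7 with the trend removed (10.9%, against 5.87% of all detected genes). These families, apart from the respiratory chain list, were chosen by symbol after the data were seen. Of 20 Polycomb and DNA methylation genes 5 were lower as deposited and 0 adjusted. Cell cycle genes were lower in 12 of 43 cases as deposited (27.9%) and in 3 adjusted (6.98%, near the share of all genes), namely MKI67 (10.3 to 2.08), CENPF (29.5 to 2.45) and CENPE (5.04 to 0.19). CDK1, with a GC content of 35.6%, stood at 101.0 and 11.8, a difference of -3.00 as deposited and -0.83 adjusted. CDKN1C, an inhibitor of the cell cycle, was the 1 member higher with the trend removed (4.17 to 42.9, adjusted 2.67). Of 23 glycolysis genes 2 were higher (8.7%) and 3 lower (13%), against 5.87% and 6.95% of all detected genes. LDHB stood at 739.6 and 97.7 and the lactate exporter SLC16A3 at 14.6 and 78.9. PGK1 (147.4 to 196.4) was higher and PFKFB3 (10.9 to 5.91) lower only with the trend removed. Reads shared between near-identical copies leave single ribosomal protein and histone genes uncertain.

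Antigen presentation and interferon genes were higher in 12 of 27 detected cases and lower in 0 (median 1.01). ISG15, a ubiquitin-like protein induced by interferon, went from 20.9 to 397.4 (adjusted 3.68), IFIT1 from 0.20 to 11.9, HLA-E from 10.1 to 69.9 and the peptide transporter TAP1 from 1.53 to 12.4. B2M, the light chain of MHC class I, stood at 84.8 and 74.1 and was higher only with the trend removed (1.93 adjusted, -0.19 as deposited). Of 26 immediate early and stress genes 12 were lower and 1 higher (median -0.85), and both populations had been sorted. IER3 went from 158.0 to 19.1, GADD45B from 48.4 to 4.72 and FOS from 56.3 to 19.8, while IER2 was higher (36.3 to 106.3). Of 41 actin cytoskeleton genes 6 were higher (14.6%) and 3 lower (7.32%), against 5.87% and 6.95% of all detected genes. As deposited 5 were higher and 7 lower, and the median was 0.07 adjusted and -0.03 as deposited. ARPC5, TPM3, MYL6 and MARCKS were higher only with the trend removed. The actin-severing protein gelsolin, GSN, was higher on both scales (19.0 to 111.7).

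Levels in hESC and HPC placed the differences within the series. Of 328 genes higher on both scales and at 10 or more in HEP, 8 stood in HEP at 10 or more times their value in each other library, a rule set after the data were seen. They were the cystatin CST1 (MES 2.95, HEP 96.6, HPC 2.70), the transcription factor SP6 (4.51, 75.4 and 2.86), SOST (0.10, 40.6 and 0.53), ADAMTSL2 (1.83, 26.9 and 0.40), PRR9 (1.37, 24.6 and 0.08), APLN, KLF2 and the matrix protein ECM1 (0.25, 12.1 and 1.09). Of 481 genes lower on both scales and at 10 or more in MES, 32 stood in MES at 10 or more times their value in each other library. These 32 held CER1, GRP, MIXL1, EOMES, MESP1, MESP2, GSC, BMP2, FST, WNT5A, DKK1, CYP26A1 and FGF8, the neuropeptide genes NTS (1022 in MES and 57.2 in HEP) and PENK (17.8 and 1.30), and the hyaluronan synthase HAS2 (185.7 and 10.97). TAL1, LMO2, ICAM2 and TIE1 stood at 43.2, 81.5, 113.1 and 54.7 in HPC, near or above their values in HEP. TDGF1, POU5F1 and L1TD1 were instead highest in hESC, at 225.2, 1582 and 187.0. The same MES and HEP libraries enter both sets of values, so these patterns add no check of the differences.

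**Figure D4:**
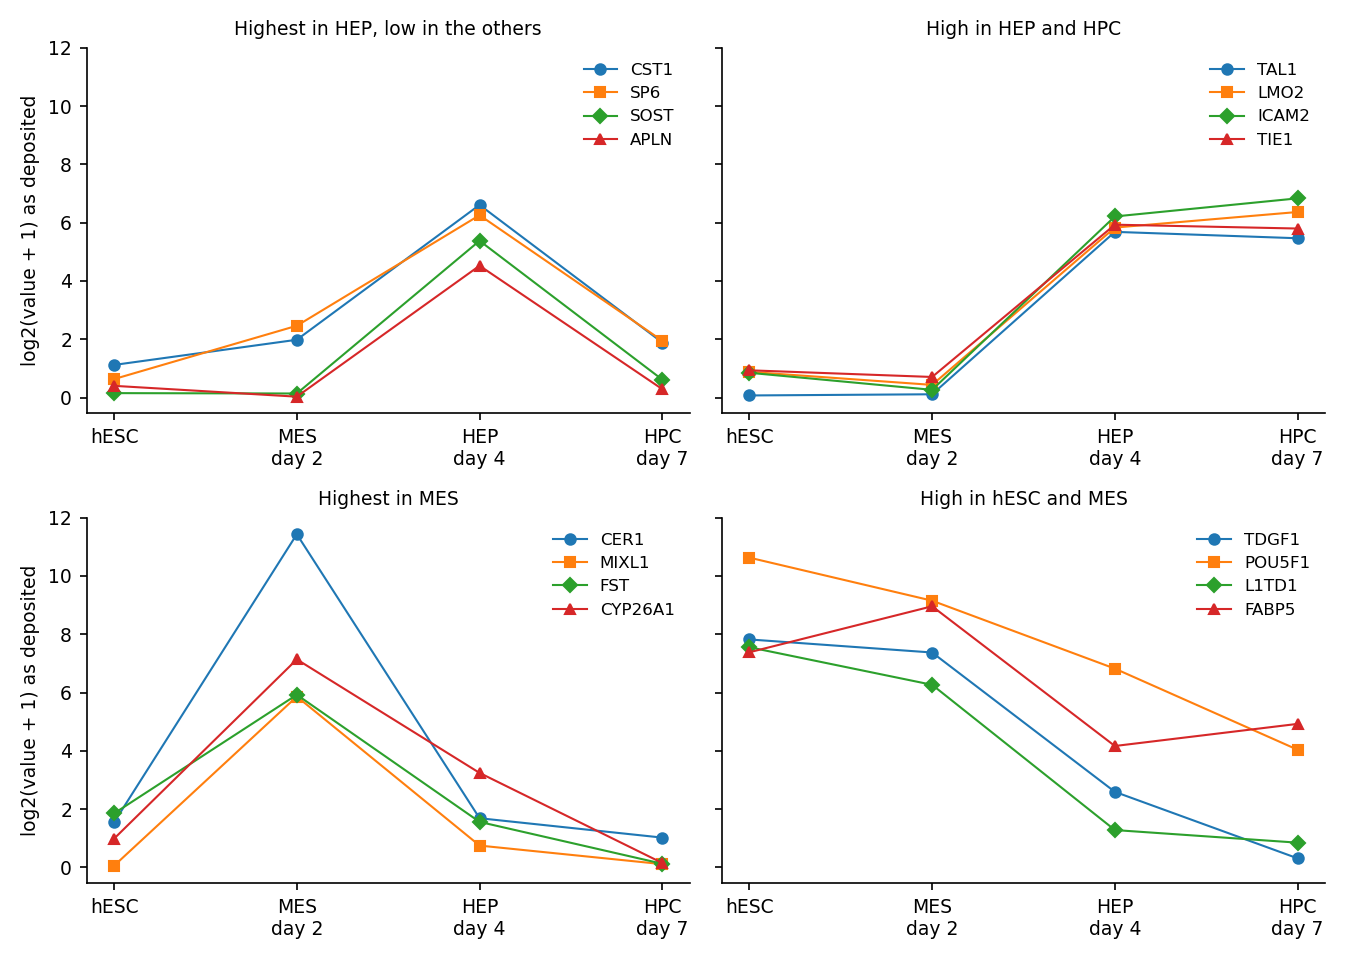
Lines join log2(value + 1) as deposited in the 4 libraries, from hESC to HPC, for 4 genes in each panel. CST1, SP6, SOST and APLN are high in HEP alone, TAL1, LMO2, ICAM2 and TIE1 in HEP and HPC, and CER1, MIXL1, FST and CYP26A1 in MES. TDGF1, POU5F1, L1TD1 and FABP5 are high in hESC and MES and lower in HEP.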

How the data were processed

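For each library the authors deposited 1 table of a normalised signal, rounded to 2 decimals. The submitters' processing notes name Bowtie, BWA, RSEM and the build hg19. The roles and versions of these tools, the annotation, the strand setting and whether the signal is FPKM or TPM were not given in the sources used here, so reads of antisense or overlapping genes may be shared. Each table had 17634 rows; 4 rows whose symbols occur more than 1 time were left out. Values gave no read steps, so no interval is given. Per the labels, libraries were made with a TruSeq kit from 2 ug of total RNA.

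Each gene's GC content and length are the medians of its protein-coding transcripts in GENCODE 29, found for 17443 genes (98.9%), 407 of them by synonym. The median log2 ratio was taken in 50 GC bins, averaged over 5 bins and divided out in equal parts from both libraries. The pseudocount was 1. Named genes were the 15 largest differences each way at 10 or more that also passed as deposited, the markers, the sort antigens and members of 39 lists. Members and lists were chosen with earlier results of these data known. Python 3.11.15, pandas 2.3.3 and scipy 1.17.1 were used. The procedure was run on simulated data, made from MES values with the fitted GC trend, noise and known 4-fold changes. Because the same trend was put in, the run checks the code and not the calls. Some list members are counted but not reported here by name.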

Additional observations from a re-analysis of the deposited data

How the results depend on the processing

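Each group is 1 library, so no result has a replicate check, and no paired analysis was possible because no group has more than 1 library. The depth is unknown, so differences of low genes have no known precision. The GC trend was removed as a whole, so any real difference that follows GC content was removed with it. Of 13 alternatives, these moved the counts of 654 higher and 775 lower genes by over 1.5 times. Values as deposited gave 2440 lower, and requiring both scales gave 431 higher. A pseudocount of 5 gave 435 higher and 349 lower, a minimum of 20 gave 272 and 288, and 4-fold gave 224 and 151. The higher genes made up 45.8% of calls, against 55.5%, 48.6% and 59.7% under these 3 settings, 19.3% as deposited, 29.4% with a common total, 34.9% with the median shift kept and 38.0% on both scales. Without GC removal, median-of-ratios scaling (a shift of -0.58 in log2) gave 1411 and 1570 and a common total 2035 lower. Single genes were followed for a set of 137 named genes, which does not include every list member named above. Of the 127 in this set past the rule, 7 changed sign as deposited: ARPC5 (-0.12), ATP5C1 (-0.13), B2M (-0.19), ETS1 (-0.22), ITGAV (-0.46), NDUFA4 (-0.70) and NDUFB5 (-1.02), all of low GC content. With a common total ITGAV (-0.22), NDUFA4 (-0.45) and NDUFB5 (-0.79) did, and with median-of-ratios scaling NDUFA4 (-0.12) and NDUFB5 (-0.46). Outside the set, ITGB1 also turned, from 1.36 adjusted to -0.73 as deposited, and was not followed under the other alternatives. Of the genes in the set not past the rule, APLNR turned from -0.74 to 0.12 with median-of-ratios scaling. SOX17 turned from -0.20 to 0.10 as deposited, 0.33 with a common total and 0.66 with median-of-ratios scaling. No gene of the set changed sign under the other 6 alternatives that alter the values. A straight-line GC trend, length removal or correction of HEP alone left 135, 136 and 137 of all 137 with their calls.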
